A study of Rattus norvegicus with 72 samples.

Results

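The genes described here copy DNA: the minichromosome maintenance genes Mcm2, Mcm3, Mcm4, Mcm5, Mcm6 and Mcm7, the sliding clamp gene Pcna, and the nucleotide synthesis genes Rrm1, Rrm2 and Tyms. A gene was measured by the probe sets whose array annotation gives 1 gene symbol equal to its own. Of the 10 genes, 9 were measured, each by exactly 1 probe set, among 31042 probe sets on the array, of which 20826 name a single gene and stand for 14217 genes. Rrm2 lies only on probe sets that also name a second gene, and it has no value.

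Rat tissues were profiled in 15 groups on 72 arrays, 1 tissue sample an array, and every value below is a log2 signal from RMA (robust multi-array average). The main set holds 60 arrays from 20 rats, 5 arrays a group: lactating rats in hyperG, lactating rats in standardG, pregnant rats in hyperG and pregnant rats in standardG, each with mammary gland, liver and adipose tissue. A smaller set holds pregnant mammary gland from 3 groups of 4 arrays: microgravity (FLT), its flight control (FDS) and its vivarium control (VIV). Here hyperG and standardG are the labels' words for hypergravity and standard gravity. The labels used here state no strain, age, g level, exposure time, day of pregnancy or lactation, or pooling of animals. Nothing beyond the rat code or letter in a title shows that arrays of a group came from separate animals, so the p-values measure the spread between these samples.

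Before a cell can copy its DNA it loads the ring of Mcm2 to Mcm7 proteins onto replication origins in G1, a step called licensing, and in S phase this ring unwinds the helix. Pcna encircles the new DNA and holds the polymerases on it, Rrm1 is the large subunit of ribonucleotide reductase, which makes deoxyribonucleotides, and Tyms makes the thymidylate that only DNA uses. These genes are largely transcribed by E2F factors as cells leave G1. In the mammary gland the epithelium proliferates through pregnancy, and in rodents it goes on dividing for a time after birth while milk secretion starts.

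RefSeq promoter windows, 250 bases before to 50 after a start site, were found for 8 of the 10 genes and not for Mcm4 and Rrm2. For Mcm2, Mcm7 and Tyms that site lay inside the gene's RefSeq span and not at its outer end. The letters TTTNNCGC, an E2F-type motif read on both strands, occurred in 6 of the 8 windows, against 4.92% of all 33469 rat windows. The members without them were Pcna and Rrm1. Among lists of related genes, they occurred in 7 of 14 windows of origin licensing, 9 of 22 of polymerases and 4 of 9 of chromatin. In G1 to S genes the count was 5 of 11, in nucleotide supply 2 of 9, in inhibitors 0 of 5 and in mitosis 3 of 20. The letters CCAAT, the core that NF-Y binds, also occurred in 6 of the 8, against 37.5% of all windows. They occurred in 15 of the 20 mitosis windows. TTTGAA, a motif of the kind found in promoters of mitotic genes, occurred in 1 of the 8, that of Mcm2, against 18.3% of all windows and 14 of 20 windows of a list of mitosis genes. The windows of the pair of genes with the largest hypergravity differences in lactation, Mcm5 and Mcm6, are shown with that of Mcm7, the gene that behaved unlike the others, and that of Pcna, which lacks the E2F-type letters. Capitals mark TTTNNCGC on either strand. The build is GRCr8, and all are printed in the direction of the gene. Mcm5 is at chr19:13488563-13488862 on the plus strand, Mcm6 at chr13:42404303-42404602 on the minus strand, Mcm7 at chr12:22163129-22163428 on the minus strand and Pcna at chr3:139955771-139956070 on the minus strand.
Mcm5: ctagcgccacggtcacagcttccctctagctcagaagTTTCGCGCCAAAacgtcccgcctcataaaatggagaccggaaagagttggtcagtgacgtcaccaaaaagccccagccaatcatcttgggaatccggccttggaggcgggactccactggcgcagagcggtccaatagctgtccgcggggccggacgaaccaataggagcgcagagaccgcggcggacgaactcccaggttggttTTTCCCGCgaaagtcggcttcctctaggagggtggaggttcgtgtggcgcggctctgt
Mcm6: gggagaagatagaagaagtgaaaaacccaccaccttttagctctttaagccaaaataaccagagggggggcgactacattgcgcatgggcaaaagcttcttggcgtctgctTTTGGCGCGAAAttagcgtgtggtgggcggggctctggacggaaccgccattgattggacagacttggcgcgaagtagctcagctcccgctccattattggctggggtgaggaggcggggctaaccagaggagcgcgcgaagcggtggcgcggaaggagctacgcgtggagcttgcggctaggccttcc
Mcm7: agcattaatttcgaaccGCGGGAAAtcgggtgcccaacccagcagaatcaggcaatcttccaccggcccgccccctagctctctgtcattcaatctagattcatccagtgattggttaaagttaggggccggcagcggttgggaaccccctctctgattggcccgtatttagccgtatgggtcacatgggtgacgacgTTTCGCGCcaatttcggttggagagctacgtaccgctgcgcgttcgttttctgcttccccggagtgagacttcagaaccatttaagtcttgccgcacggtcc
Pcna: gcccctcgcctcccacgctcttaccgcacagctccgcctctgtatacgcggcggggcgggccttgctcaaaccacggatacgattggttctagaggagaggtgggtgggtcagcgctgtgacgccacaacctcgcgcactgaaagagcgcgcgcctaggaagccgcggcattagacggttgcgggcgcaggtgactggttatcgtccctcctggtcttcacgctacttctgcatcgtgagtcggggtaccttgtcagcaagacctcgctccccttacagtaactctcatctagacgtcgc
Mcm5 holds 3 matches, a pair of which overlap on opposite strands, Mcm6 holds 2 overlapping matches, and Mcm7 holds 2 separate ones, the second overlapping a CCAAT. A match describes the letters in the window and is not a shown binding site.

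Some arrays stood apart. M210H, labelled lactating hyperG mammary gland, had mean log2 signals of 3.11 for milk protein genes and 10.46 for adipocyte genes, while A210H, labelled adipose tissue of the same rat, had 13.07 and 8.09. Both went against their labels and were left out, which leaves 4 arrays in each of those groups. Muscle genes stood far above the tissue's median on M212H, M50H, A217H, A48S, VIVA and VIVC, by 3.81 to 8.95 in log2, and hepatocyte genes on M52S and M56H, by 3.24 and 6.37. These are the arrays called carriers of foreign markers below, and they were kept, with results that change without them marked. Milk protein genes stood above the tissue's median on the adipose array A55H, by 3.36, and on the liver arrays L55H and L214S, by 3.15 and 2.59; these were also kept, and leaving them out was an alternative added after seeing the data. On the other mammary arrays of the main set the labelled tissue was borne out by its milk protein genes, which averaged 12.63 to 13.22. The median probe set of an array lay between 4.32 and 4.56 in the main set. Mcm2, Mcm3, Mcm5 and Mcm6 lay near or below that median in several groups, Mcm5 and Mcm6 mostly in liver and adipose tissue. In lactating hyperG mammary gland Mcm5 ran from 4.09 to 4.98 and Mcm6 from 4.37 to 5.57, so their arrays there reached that range too. The table has no detection call that would say whether such a level is above background.

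In lactating mammary gland the replication genes fell in hypergravity. With limma and Benjamini-Hochberg adjustment over all 31042 probe sets, 8 of the 9 measured genes were called lower at an adjusted p under 0.05 and none higher, against 6.23% of all genes called lower. The members' median difference, lactating hyperG minus lactating standardG, was -1.44 in log2, and that of all genes was 0.02. The same 8 had every hyperG array below every standardG array, a separation found in this direction for 9.26% of all genes.

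Among the 9 genes Mcm5 and Mcm6, both of the helicase, had the largest differences. Mcm5 had log2 signals of 4.57, 4.98, 4.09 and 4.70 in lactating hyperG glands, against 6.95, 9.05, 6.73, 6.97 and 6.80 in lactating standardG glands. No array of one group reached the other, and the standardG array M202S stood well above its own group. Mcm5 fell by 2.71 ± 0.39 in log2 (SE), 6.57-fold, at an adjusted p of 0.00017. Mcm6 had 5.10, 5.57, 4.65 and 4.37 in lactating hyperG glands, against 7.13, 8.45, 7.66, 7.10 and 7.12 in lactating standardG glands. It fell by 2.57 ± 0.33, 5.94-fold, the smallest adjusted p among the members at 5.2e-05. The gap between the closest Mcm6 arrays of the 2 groups was wider than the spread within either.

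Mcm4 had 7.20, 6.94, 6.61 and 6.70 in lactating hyperG glands, against 8.40, 9.12, 8.19, 7.77 and 8.05 in lactating standardG glands. It fell by 1.44 ± 0.23 (adjusted p = 0.00041). Mcm3 averaged 3.76 ± 0.25 (SD, n = 4) in lactating hyperG glands and 5.22 ± 0.75 (SD, n = 5) in lactating standardG glands, and fell by 1.46 ± 0.35 (adjusted p = 0.011). Its hyperG arrays, at 3.47 to 4.02, all lay below the median probe set of an array. Mcm2, also of low signal, averaged 4.05 ± 0.13 and 4.88 ± 0.43 in the same 2 groups and fell by 0.82 ± 0.22 (adjusted p = 0.022). Its arrays did not overlap, although the closest differed by less than the standardG spread.

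Mcm7 was the exception in the helicase. It had 6.56, 7.06, 7.09 and 7.39 in lactating hyperG glands, against 7.19, 8.68, 7.09, 7.24 and 7.50 in lactating standardG glands. The groups overlapped, and the difference of -0.51 ± 0.29 was not called (adjusted p = 0.37). In RefSeq, the rat genes for the microRNAs Mir25, Mir93 and Mir106b lie inside Mcm7; they were not analysed here.

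The clamp and the nucleotide enzymes fell too. Pcna, the brightest member, had 9.58, 9.46, 9.04 and 9.22 in lactating hyperG glands, against 10.62, 11.69, 10.66, 10.61 and 10.43 in lactating standardG glands. It fell by 1.48 ± 0.20, 2.79-fold (adjusted p = 0.0001), and its groups were well apart. Tyms had 5.21, 4.81, 4.65 and 4.67 in lactating hyperG glands, against 6.61, 7.15, 5.97, 5.76 and 5.82 in lactating standardG glands, and fell by 1.43 ± 0.24 (adjusted p = 0.00073). All Tyms arrays of the hyperG group lay below those of the standardG group. Rrm1 had 5.59, 6.17, 5.67 and 6.22 in lactating hyperG glands, against 6.82, 8.74, 6.87, 6.94 and 6.52 in lactating standardG glands, and fell by 1.27 ± 0.39 at an adjusted p of 0.048, just inside the threshold.

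The calls of Rrm1 and Mcm2 did not hold under every alternative. With all arrays kept, Rrm1 had an adjusted p of 0.063 when only these 2 groups were fitted and 0.058 after renewed quantile normalization. Without the standardG array M202S, which was the highest of its group for all 9 genes, the adjusted p was 0.087 for Rrm1 and 0.052 for Mcm2. Without the arrays that carry markers of another tissue it was 0.07 and 0.057. The Rrm1 call was also lost without any of M203H, M206H, M212H, M217H, M201S, M214S or M216S, and the Mcm2 call without M203H or M217H. Across all alternatives the adjusted p ran between 0.0092 and 0.14 for Rrm1 and between 0.0063 and 0.073 for Mcm2, while the calls of Mcm3, Mcm4, Mcm5, Mcm6, Pcna and Tyms held under every alternative that tested them. Other cell markers moved with this result: 7 of 10 luminal epithelial genes and 3 of 8 macrophage genes were called higher in lactating hyperG glands. The luminal genes averaged 9.53 to 9.98 across lactating hyperG arrays and 8.38 to 8.66 across lactating standardG arrays, and the macrophage genes 8.42 to 9.10 and 7.66 to 8.01. Milk protein genes averaged 12.94 to 13.02 and 13.10 to 13.22 in the same 2 groups, with 1 of 6, Wap, called lower. The part of these markers in the fall was not tested. In whole tissue, fewer cells of a type and less RNA per cell cannot be told apart.

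**Figure D1:**
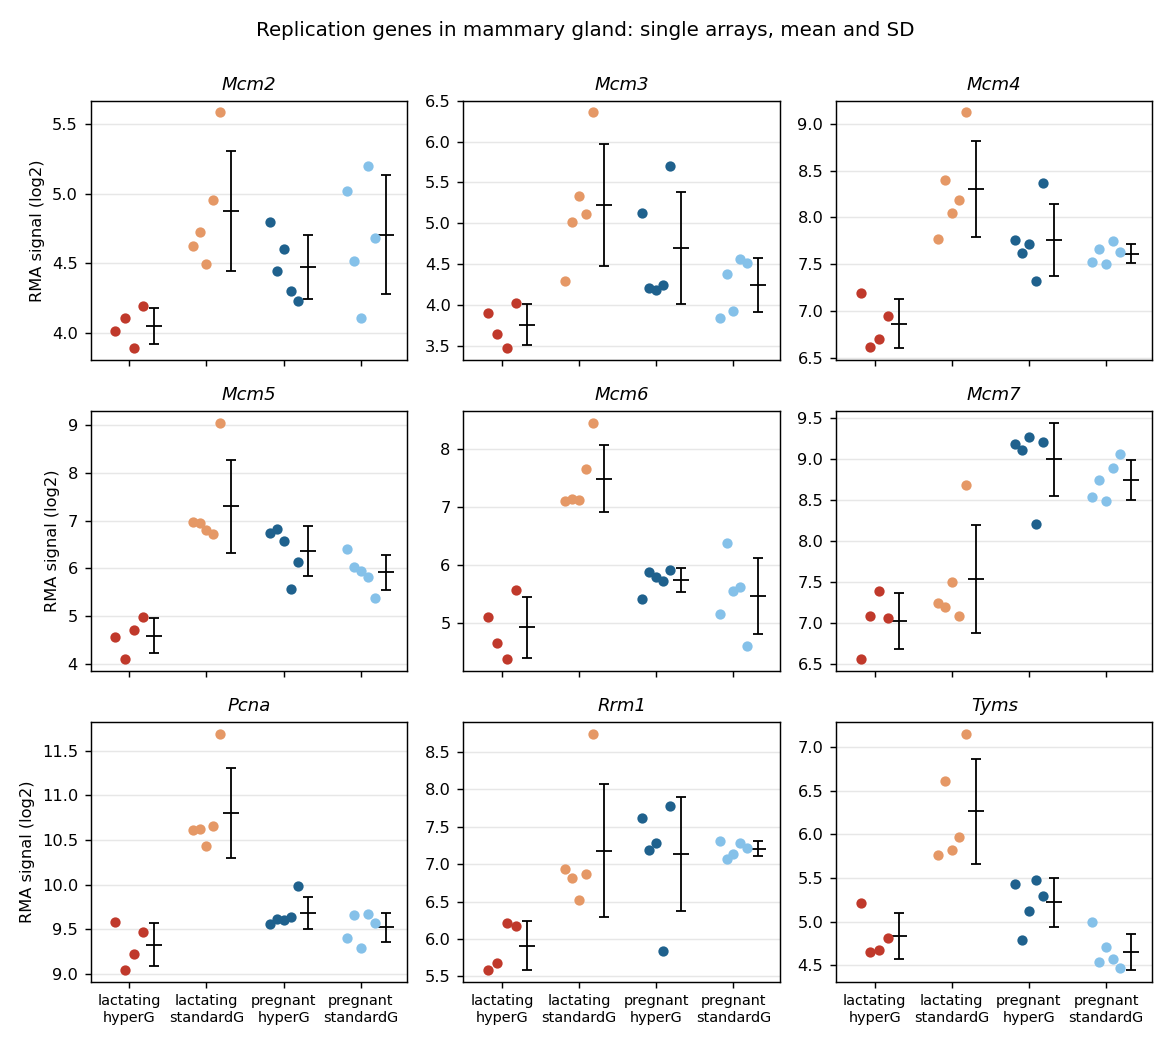
Log2 RMA signal (vertical axes, a scale for each gene) of the 9 replication genes on each mammary array, by stage and gravity group; points are arrays, bars the group mean with 1 SD (n = 4 for lactating hyperG, n = 5 for the others). The lactating hyperG arrays lie below all lactating standardG arrays for every gene shown but Mcm7, and M202S is the highest lactating standardG array for all 9 genes.

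In pregnant mammary gland no replication gene was called between hyperG and standardG. Differences ran between -0.23 for Mcm2 and 0.56 for Tyms, and limma called 0 of 9 (background 0.00703% of all genes either way). Of the 9, 1, Tyms, had an unadjusted limma p under 0.05, against 1668 of 31042 probe sets. Tyms averaged 5.22 ± 0.28 in pregnant hyperG glands and 4.66 ± 0.21 in pregnant standardG glands (SD, n = 5 each; adjusted p = 0.88). Mcm5 had 6.58, 6.82, 5.56, 6.74 and 6.14 in pregnant hyperG glands, against 6.02, 5.95, 5.38, 6.40 and 5.82 in pregnant standardG glands. These groups overlapped, unlike the lactating ones.

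The stage dependence of the hypergravity effect was tested directly, as the difference in lactation minus the difference in pregnancy. It was called negative for 6 of 9 genes, against 2.51% of all genes called negative. Mcm5 gave -3.17 ± 0.54 (SE; adjusted p = 0.0021), Mcm6 -2.85 ± 0.45 (adjusted p = 0.0013) and Tyms -1.99 ± 0.33 (adjusted p = 0.0018). Mcm3 gave -1.91, Pcna -1.64 and Mcm4 -1.59, with an adjusted p of 0.03, 0.0021 and 0.0066. Mcm2, Mcm7 and Rrm1 were not called, at -0.60, -0.76 and -1.20 (adjusted p = 0.39, adjusted p = 0.4 and adjusted p = 0.29). For Mcm3 the call was lost without the arrays carrying foreign markers (adjusted p = 0.059) and when any of M203H, M212H, M217H, M219S, M59H, M44S or M52S was left out, with a range over all alternatives of 0.013 to 0.071. Other cell markers moved in this test: 5 of 10 luminal genes (Krt8, Krt18, Krt7, Epcam and Cldn4) and 3 of 8 macrophage genes (Mrc1, Cd14 and Aif1) were called positive, and 1 of 5 endothelial genes, Kdr, negative. The share of all genes called positive was 3.14%. In pregnancy luminal genes averaged 8.60 to 9.61 across hyperG arrays and 8.88 to 9.69 across standardG arrays, and macrophage genes 8.71 to 9.26 and 8.95 to 9.47. The part of these markers was not tested.

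At standard gravity, lactating mammary gland carried more mRNA of most replication genes than pregnant gland. Of the 9 genes, 6 were called higher (14.4% of all genes) and 1 lower (25.7% of all genes), with 40.0% of all genes called either way. The members' median difference, lactating minus pregnant, was 0.98, and that of all genes was -0.10, so the replication genes ran against the general direction. The lactating standardG arrays are the same ones that stand in the lactation hypergravity comparison, so the pair of comparisons is not independent.

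Mcm6 had 7.13, 8.45, 7.66, 7.10 and 7.12 in lactating standardG glands, against 6.38, 5.54, 4.59, 5.15 and 5.61 in pregnant standardG glands. It rose by 2.03 ± 0.31 in log2 (SE), 4.09-fold (adjusted p = 8.6e-05). Tyms had 6.61, 7.15, 5.97, 5.76 and 5.82 in lactating standardG glands, against 4.53, 4.71, 4.47, 4.99 and 4.58 in pregnant standardG glands. It rose by 1.61 ± 0.23, 3.05-fold, with the smallest adjusted p of the members here, 4.7e-05. Neither gene's groups overlapped, and the pregnant Tyms arrays lay close together. Pcna had 10.62, 11.69, 10.66, 10.61 and 10.43 in lactating standardG glands, against 9.66, 9.29, 9.56, 9.40 and 9.67 in pregnant standardG glands, a rise of 1.28 ± 0.19 (adjusted p = 7.1e-05).

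Mcm5 rose by 1.38 ± 0.37 and Mcm4 by 0.69 ± 0.22 (adjusted p = 0.0072 and adjusted p = 0.018), each with no overlap between arrays. Every lactating array stood above every pregnant array for 5 of the 9 genes, against 11.2% of all genes. Mcm3 rose by 0.98 ± 0.33 (adjusted p = 0.03), with overlapping arrays. Its adjusted p was 0.087 without M202S, 0.056 without M219S, 0.07 without M44S, 0.075 without M52S and 0.076 without the arrays carrying foreign markers, in a range of 0.0088 to 0.087. Mcm7 went the other way. It had 7.19, 8.68, 7.09, 7.24 and 7.50 in lactating standardG glands, against 8.74, 8.49, 9.06, 8.54 and 8.89 in pregnant standardG glands, and fell by 1.20 ± 0.27 (adjusted p = 0.0022). Only M202S among the lactating arrays reached the pregnant range. Mcm2 and Rrm1 were not called, with differences of 0.17 ± 0.21 and -0.03 ± 0.37.

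Luminal and macrophage markers moved in the direction opposite to most replication genes. Luminal genes averaged 8.38 to 8.66 across lactating standardG arrays and 8.88 to 9.69 across pregnant standardG arrays, with 6 of 10 called lower, and macrophage genes 7.66 to 8.01 and 8.95 to 9.47, with 6 of 8 called lower. Milk protein genes moved with the replication genes: they averaged 13.10 to 13.22 across lactating standardG arrays and 12.63 to 12.99 across pregnant standardG arrays, with 2 of 6, Wap and Lalba, called higher. The part of these markers in the rise was not tested.

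Within hypergravity the same stage comparison ran downwards. Lactating hyperG glands had lower signal than pregnant hyperG glands for 4 of 9 genes and higher for none, against 21.2% of all genes lower and 34.7% called either way. Mcm7 had 6.56, 7.06, 7.09 and 7.39 in lactating hyperG glands, against 9.26, 9.11, 8.21, 9.18 and 9.20 in pregnant hyperG glands, and fell by 1.97 ± 0.29, 3.91-fold (adjusted p = 0.00012). Mcm7 was thus lower in lactation at either gravity. Mcm5 fell by 1.78 ± 0.39 (adjusted p = 0.0026), Mcm4 by 0.89 ± 0.23 (adjusted p = 0.007) and Rrm1 by 1.23 ± 0.39 (adjusted p = 0.024). The Rrm1 call was lost without M203H, M212H, M59H or M60H, with an adjusted p up to 0.072. Mcm2, Mcm3, Mcm6, Pcna and Tyms had differences between -0.94 and -0.36 that were not called; Mcm3, at an adjusted p of 0.054, was called under 7 alternatives and Mcm6, at 0.07, under 3. Other cell markers were called in this comparison too. Of 8 lymphocyte genes 4 were called lower, with a mean of 4.63 to 5.01 across lactating hyperG arrays and 5.27 to 7.67 across pregnant hyperG arrays. Of 8 macrophage genes 3 were called lower and 2 higher, and of 10 luminal genes 3 higher and 1 lower. The shares over all genes were 21.2% lower and 13.5% higher. Milk protein genes averaged 12.94 to 13.02 in lactating hyperG glands and 12.64 to 12.89 in pregnant hyperG glands, with 1 of 6 called higher, and the 3 erythroid genes 6.30 to 7.53 and 4.42 to 6.09, with 1 called higher. The part of these markers was not tested.

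**Figure D2:**
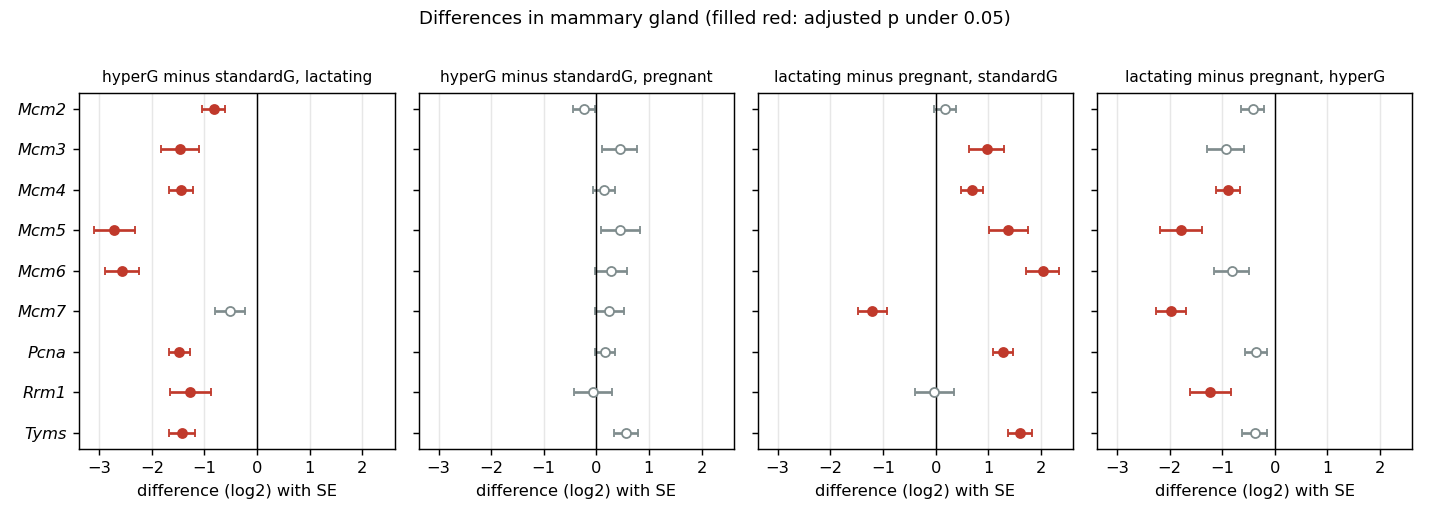
Difference in log2 signal (horizontal axes) with its SE for the 9 replication genes in mammary gland, in 4 comparisons; filled red points have an adjusted p under 0.05, open grey points do not. The lactation hypergravity panel has 8 of 9 genes called lower, the pregnancy panel has none called, and Mcm7 is lower in lactation in both stage panels.

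The neighbouring pathway lists were compared by counts over their measured genes. Between lactating hyperG and lactating standardG glands, 6.23% of all genes were called lower and 6.22% higher. Of 14 genes of origin licensing and firing, 6 were called lower and 1 higher. Cdt1, which loads the Mcm ring, fell 7.23-fold, Gins4 and Cdc45, parts of the active helicase, 5.74-fold and 5.30-fold, and Gmnn, whose protein geminin inhibits Cdt1, 3.47-fold. Orc3, of the origin recognition complex, was the gene called higher. It is named here after its value was seen, as are Shmt1, Cdk4 and Rb1 below. Of 23 polymerase and fork genes 11 were called lower, with Pole2 6.21-fold and Pold2 3.78-fold lower, both polymerase subunits. Of 11 nucleotide supply genes 5 were called lower, led by Dut, a dUTPase, 3.63-fold, and 1, Shmt1, higher. Of 9 genes of replication-coupled chromatin 4 were called lower, led by Uhrf1, which recruits the maintenance DNA methyltransferase, 6.60-fold.

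Among 18 cyclins, kinases and E2F genes of the G1 to S transition, 9 were called lower and 2, Cdk4 and Rb1, higher. Ccna2, the S phase cyclin A2, fell 12.9-fold, E2f8, a repressor E2F, 11.9-fold, E2f1, an activator, 4.99-fold and Ccne1, cyclin E1, 3.41-fold. Of 6 inhibitors 1 was called lower, Cdkn2c. Of 21 genes of mitosis and G2/M 19 were called lower, with Ttk, a spindle checkpoint kinase, 15.3-fold lower and a list median of -2.66. The lists' other medians lay between -1.55 and -0.28, against 0.02 for all genes.

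Between lactating and pregnant standardG glands 14.4% of all genes were called higher and 25.7% lower. Of the 14 origin licensing genes 6 were called higher and 1 lower, of the 23 polymerase and fork genes 6 and 1, and of the 11 nucleotide supply genes 5 and 2. Of the 9 chromatin genes 5 were called higher and 0 lower, of the 18 G1 to S genes 11 and 1, of the 6 inhibitors 2 and 1, and of the 21 mitosis genes 16 and 0. Gmnn was 6.12-fold higher, Gins4 5.31-fold, Dck, a deoxynucleoside salvage kinase, 6.82-fold, and Uhrf1 6.21-fold. Genes called lower included Orc5, 2.54-fold, and the inhibitor Cdkn1c, 3.51-fold. The 2 inhibitors called higher were Cdkn2d, 3.08-fold, and Cdkn2c, 2.75-fold.

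**Figure D3:**
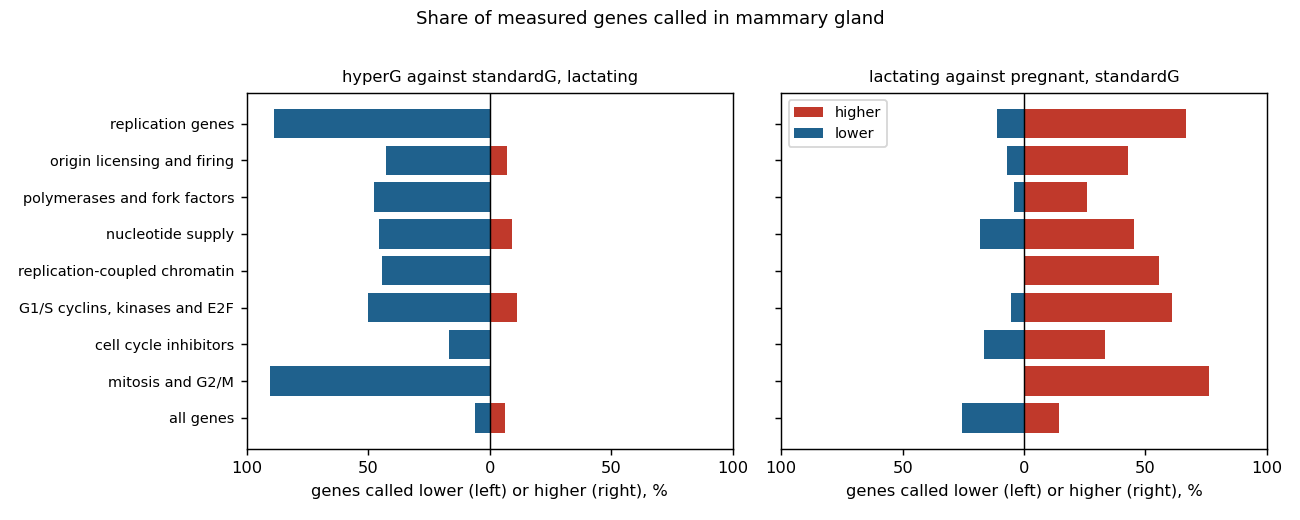
Share of measured genes called higher (red, to the right) and lower (blue, to the left), in percent, for the replication genes, 7 neighbouring lists and all genes, in mammary gland. The replication genes and the mitosis list have the largest shares lower in lactating hyperG glands, against 6.23% of all genes.

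Across tissues the highest group mean of most members was in lactating mammary gland at standard gravity. That group had the highest mean of the 12 main groups for Mcm2, Mcm3, Mcm4, Mcm5, Mcm6, Pcna and Tyms. Mcm7 was highest in pregnant hyperG glands, at 8.99 ± 0.44, and Rrm1 in pregnant standardG glands, at 7.21 ± 0.10 (SD, n = 5 each). For Mcm6 and Pcna the gap to the next group, 1.75 and 1.12, exceeded the larger SD of the pair and the arrays did not overlap. For Mcm4 and Tyms the gaps, 0.55 and 0.61, exceeded the larger SD, but arrays overlapped. For Mcm2, Mcm3 and Mcm5 they were 0.17, 0.53 and 0.93, each less than the larger SD, with overlapping arrays. The same held for Mcm7, with a gap of 0.25. For Rrm1 the gaps between the leading 3 mammary groups were 0.03 and 0.04, less than their spread.

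In this order the lactating hyperG gland ranked between 4 and 9 of 12, depending on the gene. For Mcm7 it ranked 4, at 7.03 ± 0.34 (SD, n = 4), above every liver and adipose group: the gap of 0.57 to pregnant hyperG adipose tissue exceeded the larger SD, although arrays overlapped. For the other 8 genes the gap to the next group was less than the larger SD of the pair. Mcm5 averaged 4.58 ± 0.37 there (SD, n = 4), and 4.58 ± 0.57 in lactating standardG adipose tissue and 4.05 ± 0.34 in lactating hyperG liver (SD, n = 5 each). Mcm6 averaged 4.92 ± 0.53 in lactating hyperG glands, below 5.17 ± 0.65 in lactating hyperG adipose tissue. Pcna averaged 9.32 ± 0.24 in lactating hyperG glands and 9.28 ± 0.17 in pregnant standardG adipose tissue, and was lowest in lactating hyperG liver at 7.98 ± 0.52.

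In lactating rats at standard gravity all 9 genes were called higher in mammary gland than in liver (24.7% of all genes higher, 43.2% either way). The differences ran between 1.07 for Mcm2 and 3.53 for Mcm5, and the arrays of the 2 tissues did not overlap for any of the 9, as for 22.6% of all genes. Against adipose tissue 8 of 9 were called higher (18.7% of all genes), with differences up to 2.72 for Mcm5. The Rrm1 call was lost without M202S (adjusted p = 0.13). Tyms differed from adipose tissue by 0.69 ± 0.28, with an adjusted p of 0.054, and was called (0.034) when the rat was fitted as a block and (0.042) without the arrays carrying milk protein markers. In pregnant rats the counts were 7 of 9 higher than liver (34.4% of all genes), with the Mcm2 call lost without M57S (adjusted p = 0.066) or without the arrays carrying foreign markers (adjusted p = 0.057), and 6 higher and 1 lower than adipose tissue (29.3% and 19.6% of all genes). Mcm7 stood out in pregnancy, 2.56 ± 0.27 above liver and 2.67 ± 0.27 above adipose tissue, and Tyms was 0.80 ± 0.28 below adipose tissue (adjusted p = 0.017), a call lost without A52S or A57S (adjusted p = 0.056 and adjusted p = 0.079). RNA of adipose tissue was extracted with another kit than that of mammary gland and liver, so kit and tissue cannot be told apart there.

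**Figure D4:**
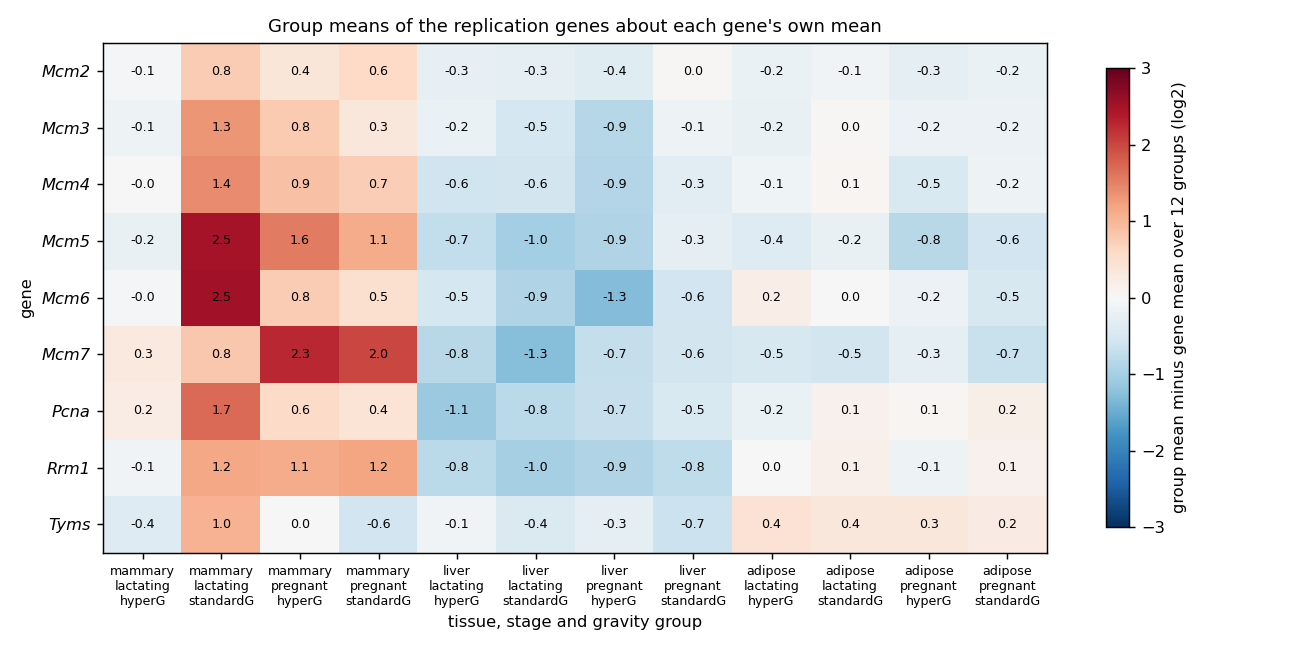
Mean log2 signal of each replication gene in the 12 main groups, as the difference from that gene's mean over the groups (colour and printed value). Mcm5 and Mcm6 reach 2.50 and 2.52 in lactating standardG mammary gland, while the lactating hyperG gland lies between -0.38 for Tyms and 0.29 for Mcm7.

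The hypergravity effect in lactation was more negative in mammary gland than in the other tissues for part of the set. The difference between the mammary and the liver effect was called for 6 of 9 genes, all negative (2.97% of all genes). It was -2.99 ± 0.44 for Mcm5 and -2.96 ± 0.42 for Mcm6. In lactating standardG liver these genes averaged only 3.77 and 4.06, below the median probe set of an array, which leaves little room to see a fall. Mcm5 averaged 4.58 in lactating standardG adipose tissue, near that median. The Mcm4 call was lost without L203H or M202S (adjusted p = 0.055 and adjusted p = 0.052). With only the groups compared, limma lost the calls of Mcm4 and Pcna (adjusted p = 0.075 and adjusted p = 0.051), which left 4 of 9. The Tyms call was lost with M210H and A210H kept (adjusted p = 0.083). Rrm1, at -1.44 and an adjusted p of 0.068, was called (0.043) with the rat as a block. Against adipose tissue it was called for 5 of 9, all negative (3.12% of all genes), among them Mcm6 at -2.77 ± 0.43 and Pcna at -1.16 ± 0.28. Without A212H, A214S or M202S, and without the arrays carrying foreign markers, 3 of these 5 were called. The weakest of the 5 was Mcm4, at an adjusted p that rounds to 0.05. Its call was lost without any of M206H, M212H, M217H, M201S, M202S, M214S, A206H, A212H, A217H, A202S, A214S, A216S or A219S, with an adjusted p up to 0.18, and without the arrays carrying milk protein markers (adjusted p = 0.064). The lactation effect at standard gravity was more positive in mammary gland than in liver for 5 of 9 genes (9.88% of all genes), Mcm6 by 2.35 ± 0.41, and Mcm4 joined them with the rat as a block (adjusted p = 0.028, against 0.056 without). Against adipose tissue it was more positive for Mcm6, Pcna and Tyms (8.27% of all genes) and more negative for Mcm7, at -1.33 ± 0.38 (17.8% of all genes).

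In liver only Mcm6 was called, and in a single comparison. Mcm6 averaged 4.45 ± 0.46 in lactating hyperG liver and 3.67 ± 0.39 in pregnant hyperG liver (SD, n = 5 each), a rise of 0.78 ± 0.20 (adjusted p = 0.037; 4.37% of all genes called either way). Leaving out any of L203H, L206H, L212H, L217H, L50H, L56H, L59H or L60H, or fitting these 2 groups alone, ended that call. Its adjusted p ran up to 0.15. Both Mcm6 means lay within or below the range of array medians, 4.32 to 4.56. In the same comparison Mcm3 was called higher without L217H, by 0.75 (adjusted p = 0.044). No member was called for lactation at standard gravity (0.732% of all genes either way), for hyperG in pregnancy (0.127%) or hyperG in lactation (0.485%). In order, 2, 5 and 0 of 9 had an unadjusted limma p under 0.05, against 3382, 2507 and 4238 of 31042 probe sets. In pregnancy 8 of the 9 differences, hyperG minus standardG, were negative, from -0.72 for Mcm6 to -0.14 for Rrm1, with Tyms at 0.39. The median over all genes was -0.04, and the share of all genes with a negative difference was not counted. The stage dependence of the hypergravity effect in liver was called for 0 of 9 (0.197% of all genes), but Mcm6 was called without L210H (adjusted p = 0.029). Here 3 of 9 had an unadjusted limma p under 0.05, against 3500 of 31042 probe sets.

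In adipose tissue limma called no member in any comparison. In each, 0 of 9 had an unadjusted limma p under 0.05, against 709 to 1852 of 31042 probe sets. The differences lay between -0.33 and 0.48 over lactation at either gravity, hyperG at either stage and their interaction. All genes together gave 0.00703% called for lactation at standard gravity and 0% for the other 4, so the tissue offered little to compare with. Mcm5, the gene of the largest fall in mammary gland, averaged 4.41 ± 0.38 in lactating hyperG adipose tissue and 4.58 ± 0.57 in lactating standardG adipose tissue (SD, n = 4 and 5). Both means lay near the median probe set of an array. A217H, with muscle markers, is among these arrays.

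In the microgravity set the pregnant glands were compared within their 12 arrays. No member was called between microgravity and flight control (0.506% of all genes either way) or between microgravity and vivarium (0.626%). Nor was any member called between flight control and vivarium (0%). In order, 4, 1 and 0 of 9 had an unadjusted limma p under 0.05, against 4100, 2951 and 2851 of 31042 probe sets. Microgravity minus flight control ran between -0.58 for Mcm3 and 0.00 for Mcm7. Tyms, which had the lowest unadjusted limma p of the members at 0.016, had 4.15, 3.84, 4.16 and 4.19 in microgravity, against 3.92, 4.90, 4.98 and 4.72 in flight controls. The median probe set of an array lay between 4.87 and 5.02 in this set, above every microgravity and vivarium value of Tyms. The array FDSA overlapped the microgravity group, and without it Tyms was called at an adjusted p of 0.028, with a difference of -0.78. Tyms was below the vivarium arrays, at 4.58, 4.60, 4.34 and 4.56, on every microgravity array, with a difference of -0.44 ± 0.20 (adjusted p = 0.51). Such a separation in this direction was found for 1 of the 9 members and for 6.32% of all genes.

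Mcm5 had 6.28, 6.68, 6.30 and 6.18 in microgravity, against 6.59, 7.40, 6.92 and 6.80 in flight controls, a difference of -0.57 ± 0.23 (adjusted p = 0.32). FDSB was the highest flight control for 8 of the 9 genes. On FDSB lymphocyte genes averaged 9.07 and plasma cell genes 9.76, and the part of these cells was not tested. The lymphocyte genes averaged 5.79 to 6.84 over the microgravity arrays and 6.19 to 9.07 over the flight controls.

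**Figure D5:**
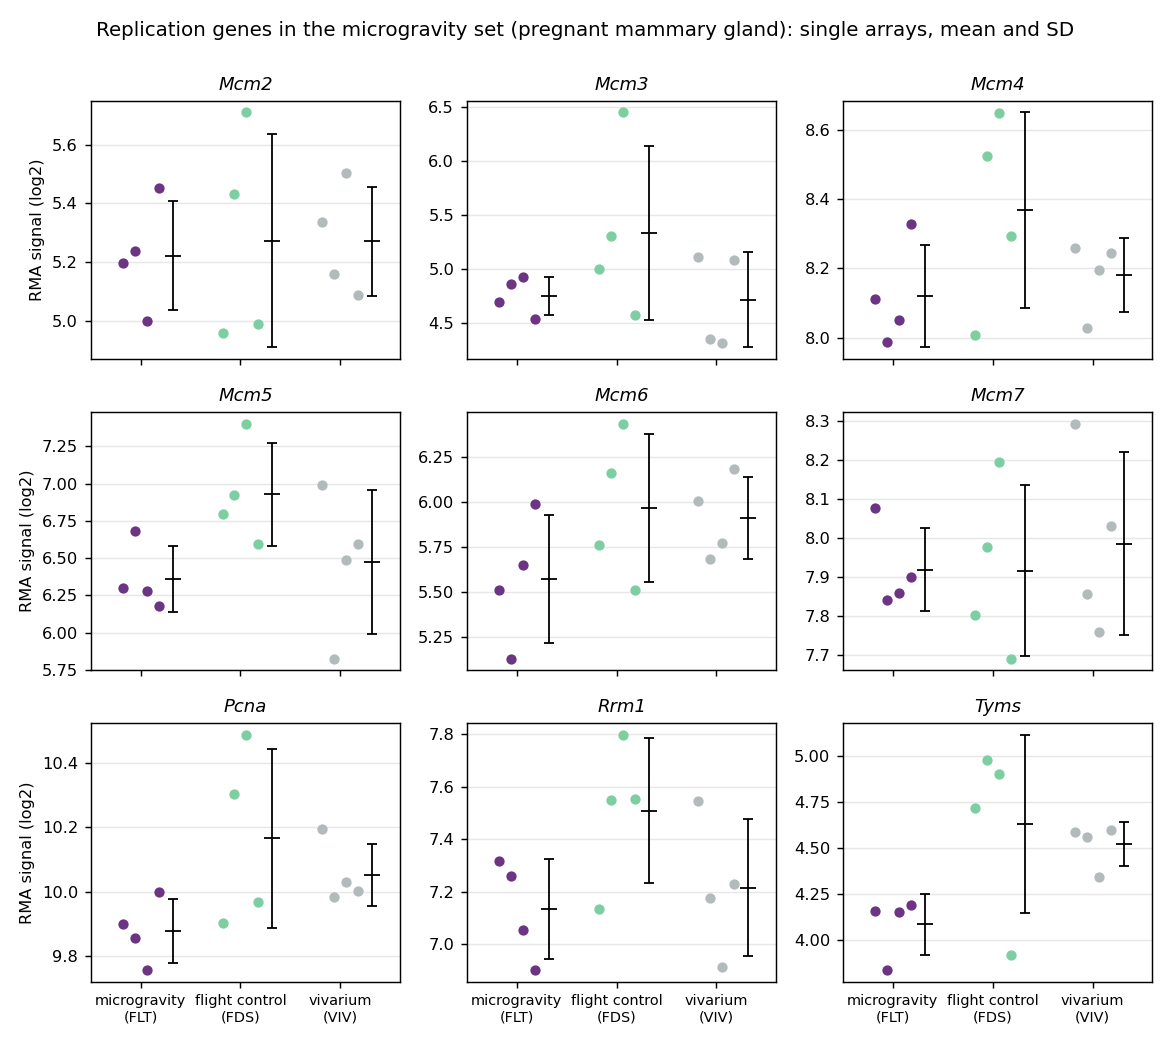
Log2 RMA signal (vertical axes, a scale for each gene) of the 9 replication genes in pregnant mammary gland of the microgravity set; points are arrays, bars the group mean with 1 SD (n = 4 each). No gene shown was called in any of the 3 comparisons. Tyms is lower on every microgravity array than on any vivarium array, as are 6.32% of all genes.

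The members did not follow one another equally over the 58 main arrays. Pearson's r between a gene and the mean of the other members, a description over arrays that share tissues, rats and normalization, was highest for Mcm5 at 0.92 and Mcm4 at 0.92, and lower for Mcm7 at 0.73 and Tyms at 0.40. Tyms was the member with adipose tissue near the top of its order, next after lactating standardG glands. The genes outside the set that followed the members' mean most closely were E2f8 (0.93), Cdk1 (0.93), Kntc1 (0.93), Tcf19 (0.93) and Dscc1 (0.92).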

How the data were processed

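Total RNA (25 ng an array) was labelled and hybridised to rat expression arrays, per the labels' protocols, and extracted with TRIzol for mammary gland and liver and with an RNeasy Lipid kit for adipose tissue. The deposited values are log2 signals, which the authors made with RMA, per the submitters' processing notes; versions and background settings are not given in the sources used here. No value was transformed again. The 12 arrays of the microgravity set were used only within their set.

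Group means were fitted with limma 3.58.1 (R 4.3.3) and moderated with eBayes, in mammary gland (19 arrays), liver (20), adipose tissue (19), all 58 for comparisons between tissues, and the 12. P-values were adjusted by Benjamini-Hochberg over all 31042 probe sets and called under 0.05. Fits were tested on simulated data with independent noise and added differences, for the first comparison of each fit only. Such data hold no outlying array and no shared rat, so the test does not cover these. Arrays M210H and A210H, exchanged by their markers, were left out.

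Arrays of different tissues with the same rat code were taken as the same animal. Their deviations from group means had a median correlation of 0.13 (57 pairs, 40 over 0.1), against -0.01 for other pairs.

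The members are all named, and of each neighbouring list up to 4 called genes with the largest change. For hypergravity in lactating gland, Orc3, Shmt1, Cdk4 and Rb1 were added after their values were seen. The genes and lists were chosen with earlier results of these data known. Alternatives were array weights, trended robust moderation, only the groups compared, only probe sets above the median mean signal, renewed quantile normalization, the rat or letter as a block, the doubtful arrays kept or left out (those with milk protein markers chosen after seeing the data), and each array left out in turn. The number of arrays limits the precision.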

Additional observations from a re-analysis of the deposited data

Results flagged for a closer look

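Across 135 tests of a gene in a group for 1 array far from the rest (Dixon's criterion, groups of 4 or 5), 13 stood out, where chance gives about 1 in 20. In lactating standardG mammary gland, 4 of the 13 came from M202S, with Mcm5 at 9.05 in log2, Mcm7 at 8.68, Pcna at 11.69 and Rrm1 at 8.74. In pregnant hyperG mammary gland Mcm7 was low on M56H at 8.21, an array with hepatocyte markers, and Pcna was high on M60H at 9.99, the array with the highest lymphocyte marker mean of its group (7.67, against a group median of 5.78). In lactating hyperG liver L212H was low for Pcna, 7.08, and Rrm1, 4.11. Mcm3 was high in pregnant standardG liver on L52S, 4.52, and in pregnant hyperG adipose tissue on A56H, 4.61, where lymphocyte markers averaged 7.36 against a group median of 4.89, and Mcm4 in lactating hyperG adipose tissue on A206H, 7.41. In the microgravity set Tyms was low on the microgravity array FLTB, 3.84, and on the vivarium array VIVC, 4.34, which carries muscle markers.

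A tested difference between effects was called for the following genes, all as log2 differences from limma. For the hypergravity effect in mammary gland, lactation minus pregnancy, they were Mcm3 at -1.91, Mcm4 at -1.59, Mcm5 at -3.17, Mcm6 at -2.85, Pcna at -1.64 and Tyms at -1.99. For the hypergravity effect in lactation, mammary gland minus liver, they were Mcm3 at -1.77, Mcm4 at -1.40, Mcm5 at -2.99, Mcm6 at -2.96, Pcna at -1.17 and Tyms at -1.75. For mammary gland minus adipose tissue they were Mcm4 at -1.24, Mcm5 at -2.54, Mcm6 at -2.77, Pcna at -1.16 and Tyms at -1.51. For the lactation effect at standard gravity, mammary gland minus liver, they were Mcm3 at 1.35, Mcm5 at 2.12, Mcm6 at 2.35, Pcna at 1.64 and Tyms at 1.39. For mammary gland minus adipose tissue they were Mcm6 at 1.56, Mcm7 at -1.33, Pcna at 1.34 and Tyms at 1.49. These comparisons share the lactating standardG mammary arrays.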

How the results depend on the processing

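Over 4531 alternatives for single genes, of which 1591 were of called differences, no called difference changed sign. Of 76 called differences 14 lost the call under some alternative, and of 158 uncalled ones 13 gained it. With only the groups compared, the count of called genes for lactation against pregnancy in hyperG liver went to 0 of 9, and it was also 0 over the probe sets above the median mean signal, which drop Mcm6 in liver. The hypergravity effect in lactation, mammary gland minus adipose tissue, was called for 3 of 9 genes with only the groups compared and also without the arrays that carry markers of another tissue. Mammary gland minus liver, that effect was called for 4 of 9 with only the groups compared and for 8 with array weights. The cause was not tested. Leaving out 1 array at a time gave 6 to 8 called genes for hypergravity in lactating mammary gland, 6 to 7 for lactation in standardG glands, 3 to 5 in hyperG glands and 5 to 6 for their interaction. It gave 0 to 1 for lactation in hyperG liver, 0 to 1 for the liver interaction, 0 to 1 for microgravity against flight control, and 3 to 6 for the mammary minus adipose hypergravity effect. With the rat as a replicate block, the calls gained were Tyms between lactating mammary gland and adipose tissue (9 of 9 called), Mcm4 for the lactation effect, mammary minus liver (6 of 9), and Rrm1 for the hypergravity effect, mammary minus liver (7 of 9); the block changed no other call. In the microgravity set, arrays of different groups share only a letter: their deviations had a median correlation of -0.08, and the letter as a replicate block gave 0 called genes in each of the 3 comparisons. Each measured gene has a single probe set, so a mean over probe sets could not differ and was not run, and no liver array met the rule on muscle markers. Leaving out A55H, L55H and L214S, which carry milk protein markers, was chosen after seeing the data; it ended the call of Mcm4 for the mammary minus adipose hypergravity effect and added that of Tyms between lactating mammary gland and adipose tissue, and no other call of a gene in the comparisons with liver or adipose arrays changed. The probe sets above the median mean signal held neither Mcm3 in mammary gland nor Mcm2, Mcm3 and Mcm5 in adipose tissue, whose low signals limit what can be seen.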
